A study of Mus musculus with 20 samples.

Results

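The messenger RNA of trained mouse muscle labelled as lacking the clock factor BMAL1 was set against that of untrained muscle from vehicle-treated mice, gene by gene, to see which differences from normal resting muscle remained after training. The comparison took all libraries titled as trained knockouts and all those titled as vehicle controls, which are 10 of the 20 libraries of the study. Among the trained knockout libraries, 1 and 4 held nearly the same counts, as did 3 and 5, and each of these pairs was summed into 1 sample, so that 8 samples were compared, 3 trained against 5 untrained. The untrained knockout group (5 libraries) was fitted beside them, to show what stood before training.

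All mice of the study carried the genotype Cre+:iMSBmal1 fl/fl, a Bmal1 gene flanked by loxP sites together with an inducible Cre recombinase restricted to muscle. Vehicle sedentary mice received vehicle and no exercise. The trained mice labelled knockout were made muscle Bmal1 knockouts and ran on a treadmill daily over 6 weeks. Untrained mice labelled knockout did not exercise. The labels do not give the inducing agent, age or sex. Gastrocnemius is given as the source and in the design, but tibialis anterior in the tissue field, and hindlimb muscle covers both. The time of collection is given as 48 hours post in one place and as 47 hours after the last bout in the other. Nothing in the labels says that the libraries of a group came from separate animals, so each p-value measures only the spread between these samples, which may be technical. Because whole muscle was sequenced, fewer cells of a type and less RNA per cell cannot be told apart.

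Total estimated counts per library ranged from 10610333 to 13079961 in the trained knockout group, the lowest of the 4 groups, and from 12929215 to 19153527 in the vehicle sedentary group. Among abundant genes, the median squared difference between trained knockout libraries 3 and 5 was 1.75 times the value of pure counting noise, and 2.38 times between libraries 1 and 4, against at least 6.38 times for any other of the 190 pairs. The 3 resulting samples were not alike. Sample 1+4 had 474 genes that departed over 2-fold from its group's remaining samples, sample 2 had 315 and sample 3+5 had 42, against 35 to 126 in the vehicle sedentary libraries. The first principal component held 29.1% of the variance. On it, sample 2 scored 41.7 and sample 3+5 19.7, while sample 1+4 scored -8.95, among the untrained samples. Values of these samples are therefore given one by one, in the order 1+4, 2 and 3+5. All defining genes of skeletal muscle fibres on the list used here were detected, with a summed level of 93247 to 103273 CPM (counts scaled to a common column sum) in vehicle sedentary and 89645 to 107966 CPM in trained knockout samples.

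The circadian clock of a muscle fibre is a loop of transcription and translation. BMAL1 pairs with CLOCK or NPAS2, binds E-boxes in promoters and switches on genes of its own repressors, the PER and CRY proteins, and of the nuclear receptors REV-ERB, which in turn hold down Bmal1, against the activator RORA. Outputs of the loop include the D-box factors DBP, TEF and HLF and, in muscle, genes of glucose uptake and fuel choice. Endurance training is known for raising the mitochondrial content and oxidative capacity of muscle.

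Of 14359 genes tested, 1620 differed between trained knockout and vehicle sedentary samples, which is 11.3% (called genes from here on: an adjusted p under 0.05 by the quasi-likelihood test of edgeR, with the Benjamini-Hochberg method). Trained knockout samples were higher for 892 (6.21%) and lower for 728 (5.07%), and 339 of the differences were at least 2-fold. The balance between higher and lower depended on the scaling: with column sums in place of TMM, the trimmed-mean scaling of edgeR, 583 were higher and 1073 lower. The values of the 8 samples did not overlap between the groups for 1272 of the called genes, and over all tested genes, on column-sum CPM, they did not overlap for 16.2% (5.36% higher and 10.8% lower). Untrained knockout samples differed from vehicle sedentary samples in 1013 genes (7.05%), with 439 higher (3.06%) and 574 lower (4%). That comparison shares its vehicle samples with the first, so the values of both are set side by side below and no overlap of their genes is read. Between trained and untrained knockout samples 291 genes differed (2.03%), with 225 higher after training (1.57%) and 66 lower (0.46%). With column sums these were 101 and 357. The count for trained knockout against vehicle sedentary rested on single samples of the trained group: it was 2957 without sample 1+4, 945 without sample 2 and 784 without sample 3+5.

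The targeted gene was read first. Arntl (Bmal1, ENSMUSG00000055116) was at 7.42, 6.39, 6.53, 7.93 and 5.68 CPM in the vehicle sedentary libraries and at 16.03, 8.72 and 8.05 CPM in the trained samples labelled knockout. Every trained sample labelled knockout was above every vehicle sedentary library, the last of them by little, and sample 1+4 was far above the other 2. The difference of mean log2(CPM + 1) was 0.56 (p = 0.0357 by a two-sided exact permutation test, the lowest that 5 against 3 can give), and the edgeR log2 difference was 0.76 with SE 0.205 (adjusted p = 0.0245). The edgeR call was lost without sample 1+4 (log2 0.46, edgeR adjusted p = 0.101), with column sums and without vehicle library 2, 3 or 5. The gene-level count was thus not lower where the labels give a knockout. It cannot show whether the floxed part of the transcript was missing, since the sources used here do not say which exons are removed and counts per exon were not analysed here. Directions below are drawn from the labels.

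Clock genes other than Arntl still differed from normal resting muscle after training. All 3 genes of the activating arm were higher and 7 of the 8 repressors were lower, with a median log2 difference of 0.91 and -1.13, against 0.01 over all tested genes. The nuclear receptors Nr1d1, Nr1d2 and Rora were lower, and of the 4 D-box factors the 3 activators were lower and the repressor Nfil3 was higher. In untrained knockout muscle the activators, repressors and D-box factors gave 3 of 3 higher, 7 of 8 lower, and 3 lower with 1 higher, at medians of 1.2, -0.91 and -0.80, and the same 3 receptors were lower.

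The E-box is the DNA word CACGTG that BMAL1 and its partners bind. It was searched for in the 250 bases before each annotated start site (RefSeq, GRCm38.p6), for 16 of the 19 clock genes tested that matched a promoter there, and 5 of the 16 held it. The word reads the same on both strands, and it stands in 6.02% of all 32851 promoter windows of the same length. A gene was counted if any of its windows held the word, which was so for 9.83% of the tested genes with a promoter there. For each of these 5 genes 1 window is shown. In the order shown, their log2 differences were -1.86, -0.91, -1.12, -0.42 and 0.03, and none of them was called higher. The window of a second Tef start also held an E-box, beginning 138 bases before that start, and is not shown. Capitals mark the E-box, and each window is written 5′ to 3′ on the strand of its gene, ending at the base before the start.
Ciart, chr3:95882229-95882478, minus strand: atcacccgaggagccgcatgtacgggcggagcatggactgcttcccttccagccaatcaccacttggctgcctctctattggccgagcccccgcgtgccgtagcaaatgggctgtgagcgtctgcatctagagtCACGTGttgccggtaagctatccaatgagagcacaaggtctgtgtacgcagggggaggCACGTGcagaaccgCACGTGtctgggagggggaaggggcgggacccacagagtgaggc
Per1, first start, chr11:69098699-69098948, plus strand: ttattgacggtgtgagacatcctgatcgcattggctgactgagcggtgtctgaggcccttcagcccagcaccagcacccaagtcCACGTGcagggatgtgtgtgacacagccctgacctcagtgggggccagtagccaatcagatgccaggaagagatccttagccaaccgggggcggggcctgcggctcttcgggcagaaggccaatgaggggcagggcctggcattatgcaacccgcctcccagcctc
Tef, first start, chr15:81802423-81802672, plus strand: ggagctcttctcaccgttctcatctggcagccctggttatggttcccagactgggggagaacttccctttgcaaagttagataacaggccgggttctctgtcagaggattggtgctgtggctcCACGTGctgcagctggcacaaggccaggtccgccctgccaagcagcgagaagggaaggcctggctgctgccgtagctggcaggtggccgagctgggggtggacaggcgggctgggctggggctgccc
Bhlhe41, chr6:145865421-145865670, minus strand: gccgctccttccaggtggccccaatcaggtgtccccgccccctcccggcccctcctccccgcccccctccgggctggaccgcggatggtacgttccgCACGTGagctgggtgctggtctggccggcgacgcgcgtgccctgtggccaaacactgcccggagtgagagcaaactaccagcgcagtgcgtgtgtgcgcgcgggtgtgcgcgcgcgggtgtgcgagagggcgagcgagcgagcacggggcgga
Cry1, chr10:85185055-85185304, minus strand: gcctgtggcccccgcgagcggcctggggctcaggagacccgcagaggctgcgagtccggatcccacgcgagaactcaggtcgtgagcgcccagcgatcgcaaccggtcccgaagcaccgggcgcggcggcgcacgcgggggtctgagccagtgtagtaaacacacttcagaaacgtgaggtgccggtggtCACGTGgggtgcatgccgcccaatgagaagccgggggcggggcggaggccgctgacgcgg
Ciart carries 3 copies, which begin 116, 58 and 44 bases before the start, and the others shown carry 1 each, beginning 166 bases before the start in Per1, 127 in Tef, 153 in Bhlhe41 and 60 in Cry1. Over called genes with a promoter in the table, the E-box stood in 67 of 545 that were lower (12.3%) and in 49 of 642 that were higher (7.63%), against 1012 of 10291 tested genes (9.83%). The D-box word TTATGNAA, searched on both strands, stood in 2 of the 16 clock genes and in 2.26% of the tested genes with a promoter. It stood in 3.07% of all single windows. A match is a description of these letters only, and its absence from a window says nothing of binding.

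Among the activators, Clock (ENSMUSG00000029238), the partner of BMAL1, was at 33.4, 32.3, 34.3, 37.6 and 29.3 CPM in vehicle sedentary libraries and at 79.0, 48.3 and 50.5 CPM in trained knockout samples. The groups did not overlap, and the log2 difference was 0.90 with SE 0.117 (edgeR adjusted p = 0.000125). It was 1.2 in untrained knockout muscle, and the trained and untrained knockout groups did not differ by the test (log2 -0.29, adjusted p = 0.199). Npas2 (ENSMUSG00000026077), an alternative partner of BMAL1, was at most 0.731 CPM in vehicle sedentary libraries, with 0 in library 5, and at 4.62, 3.44 and 2.19 CPM in trained knockout samples. Its log2 difference of 3.17 (SE 0.465, edgeR adjusted p = 0.000381) stood beside 3.04 in untrained knockout muscle.

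Among the repressors, Per2 (ENSMUSG00000055866) was at 41.5, 40.7, 45.4, 44.5 and 48.1 CPM in vehicle sedentary libraries and at 15.2, 14.5 and 13.1 CPM in trained knockout samples, 2.92-fold lower. In all 3 trained samples it was also below the lowest of the untrained knockout libraries, which lay between 17.5 and 24.4 CPM. Per2 was the clock gene that differed between trained and untrained knockout muscle, and it lay farther from vehicle sedentary after training (log2 -1.55 against -1.09, difference -0.46 with SE 0.107, edgeR adjusted p = 0.0403). No gene was called between the knockout groups without sample 2 or 3+5 or with only those groups fitted, so this call of Per2 was lost there, while its call against vehicle sedentary held in all 27 alternative fits. Per3 (ENSMUSG00000028957), a period gene with a lesser part in the loop, was at 53.5, 41.4, 58.0, 62.2 and 60.2 CPM in vehicle sedentary libraries and at 24.0, 17.5 and 15.9 CPM in trained knockout samples (log2 -1.45, edgeR adjusted p = 1.16e-05). Per1 (ENSMUSG00000020893) was at 66.4 to 84.0 CPM and at 61.8, 28.2 and 22.9 CPM. Its sample 1+4 lay near the vehicle libraries, and its call (log2 -0.91, edgeR adjusted p = 0.0288) was lost without sample 2 (log2 -0.75), without sample 3+5 (log2 -0.66) and without vehicle library 1 or 5, and the log2 difference was -1.37 without sample 1+4.

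Bhlhe40 (DEC1, ENSMUSG00000030103), which competes for E-boxes, was at 159, 172, 190, 140 and 160 CPM in vehicle sedentary libraries and at 63.4, 60.7 and 59.0 CPM in trained knockout samples, 2.54-fold lower (edgeR adjusted p = 4.49e-06). The 3 trained samples lay close together for this gene, unlike for Clock or Per1. Ciart (CHRONO, ENSMUSG00000038550), whose promoter holds 3 E-boxes, was at 7.58, 4.46, 10.4, 5.84 and 6.23 CPM against 2.56, 0.764 and 1.90 CPM, a log2 difference of -1.86 with SE 0.365 (edgeR adjusted p = 0.00358). Cry2 (ENSMUSG00000068742) had a log2 difference of -0.75 (edgeR adjusted p = 0.000126). Cry1 (ENSMUSG00000020038), with an E-box 60 bases before its start, was the repressor that did not pass: it was at 19.9 to 23.6 CPM in vehicle sedentary libraries and at 20.3, 21.2 and 20.8 CPM in trained knockout samples (log2 0.03, edgeR adjusted p = 0.896). Bhlhe41 (DEC2) passed narrowly at a log2 difference of -0.42 (edgeR adjusted p = 0.0462) and was called in 7 of 27 alternative fits. The exons of Arntl, Cry2, Bhlhe40, Bhlhe41, Nr1d1, Rora, Dbp and Tef overlap another annotated gene, and since the strandedness of the counting is not given, their counts are uncertain.

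Of the nuclear receptors, Nr1d2 (REV-ERB beta, ENSMUSG00000021775) was at 285, 251, 310, 268 and 280 CPM in vehicle sedentary libraries and at 94.0, 103 and 78.9 CPM in trained knockout samples, 2.86-fold lower (edgeR adjusted p = 4.49e-06). Rora (ENSMUSG00000032238), an activator of Arntl, was at 224, 176, 185, 143 and 194 CPM against 97.1, 87.0 and 79.7 CPM, and at 130 to 141 CPM in untrained knockout libraries. Its 3 trained samples lay below all untrained samples of either genotype. The log2 difference from vehicle sedentary was -0.99 after training and -0.51 without, and the difference between the knockout groups missed the threshold (log2 -0.49, edgeR adjusted p = 0.0649). Nr1d1 (REV-ERB alpha) had a log2 difference of -0.68 (edgeR adjusted p = 0.000451).

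Of the D-box factors, Dbp (ENSMUSG00000059824), a direct output of the clock, was at 120, 133, 155, 122 and 142 CPM in vehicle sedentary libraries and at 32.6, 43.0 and 33.7 CPM in trained knockout samples, 3.47-fold lower (edgeR adjusted p = 2.04e-06). It was at 31.6 to 47.9 CPM in untrained knockout libraries, so the range of trained knockout samples lay inside the untrained one. Tef (ENSMUSG00000022389) was at 350 to 397 CPM in vehicle sedentary libraries and at 201, 148 and 143 CPM in trained knockout samples (log2 -1.12, edgeR adjusted p = 5.76e-06). Hlf was lower too, with a log2 difference of -0.97 against -0.58 without training. Nfil3 (ENSMUSG00000056749), which represses the same D-box sites, was at 26.1 to 39.0 CPM in vehicle sedentary libraries and at 76.8, 62.1 and 63.8 CPM in trained knockout samples, 2.23-fold higher (edgeR adjusted p = 3.52e-05). Vehicle trained libraries, without library 2, which stood far from all others, lay between 103 and 129 CPM for Dbp and between 23.9 and 36.0 CPM for Nfil3.

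**Figure D1:**
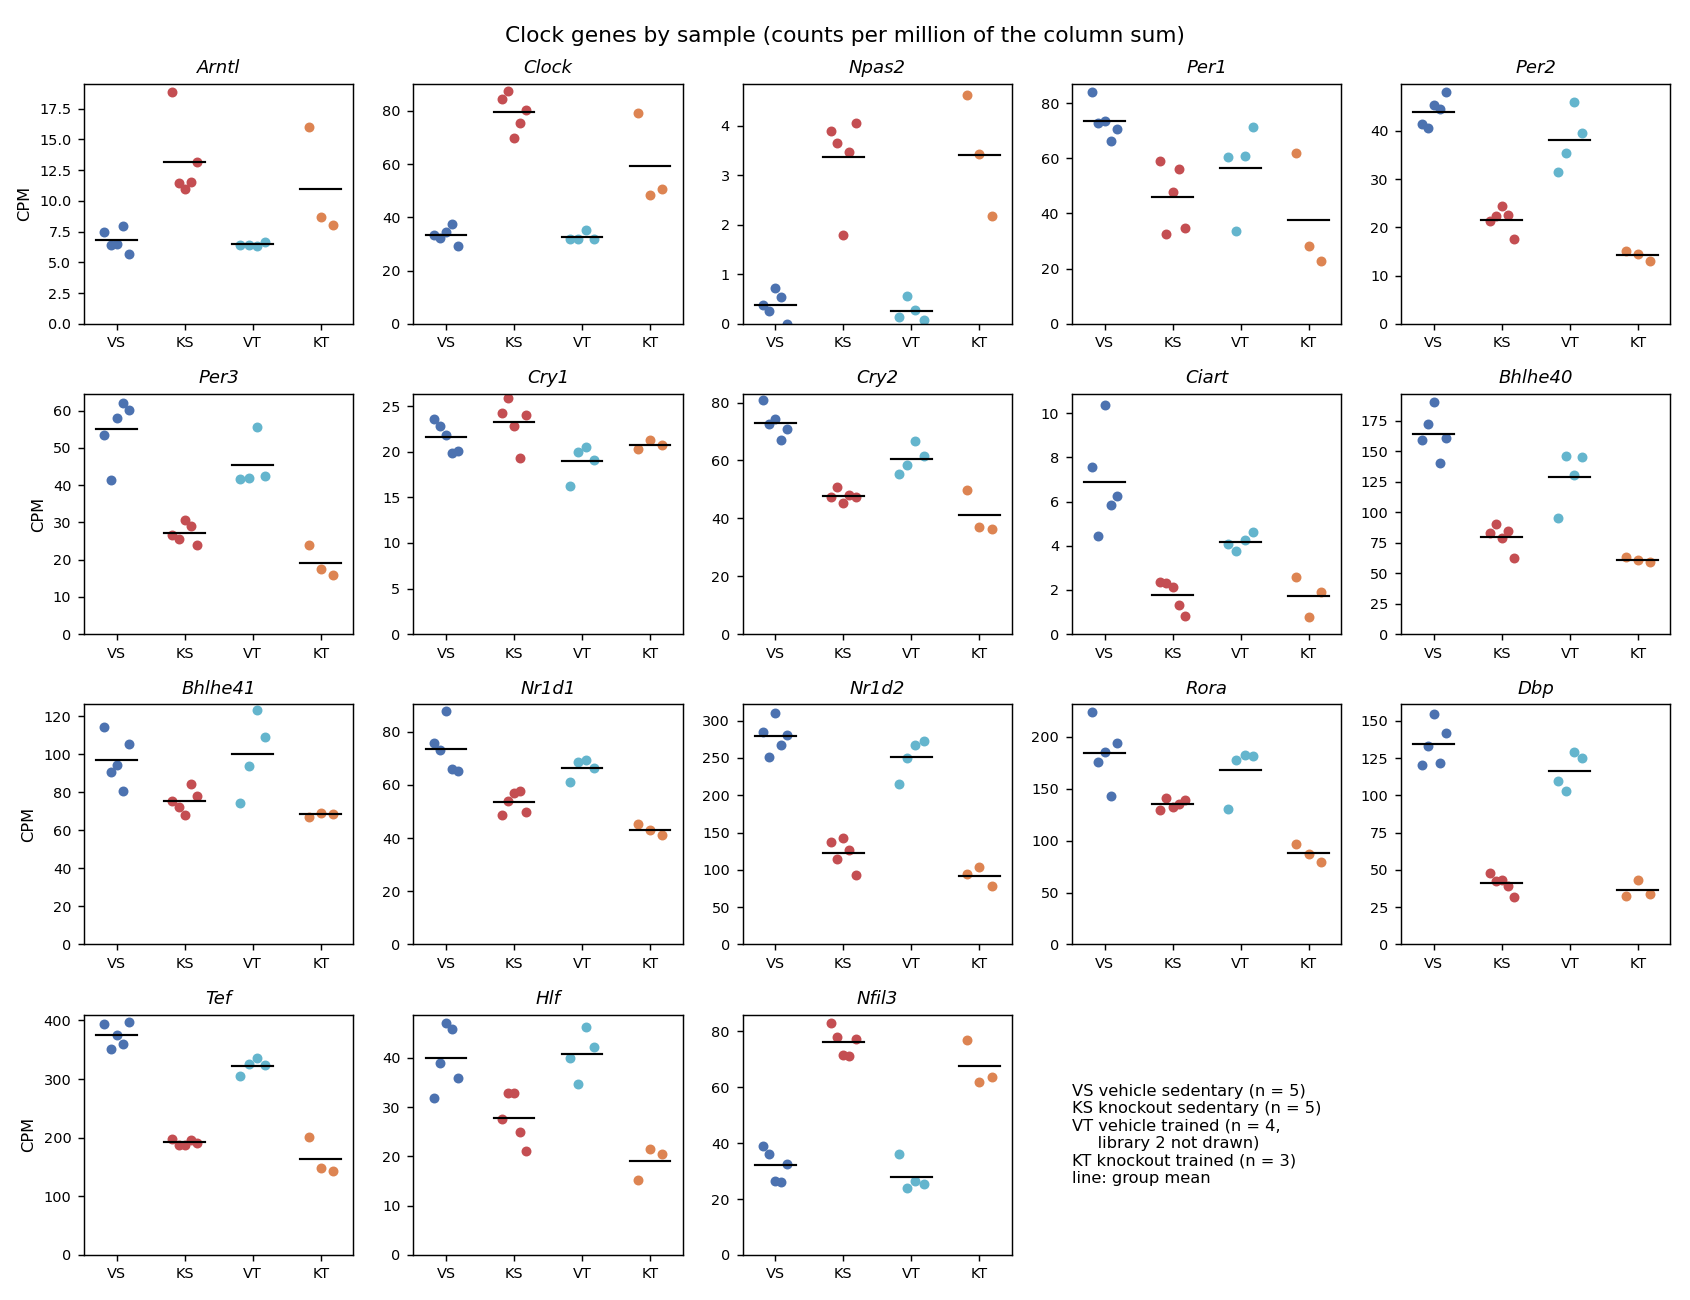
CPM of 18 clock genes in each sample (points) with the group mean (line), for vehicle sedentary, knockout sedentary, vehicle trained (library 2 not drawn) and knockout trained samples. The trained knockout samples of Per2, Nr1d2, Dbp, Tef and Nfil3 do not overlap the vehicle sedentary ones, while those of Cry1 lie among them.

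The 10 largest rises by the rule for named genes had log2 differences from 2.22 to 4.09 and the 10 largest falls from -1.87 to -3.26. All 20 also differed in the same direction in untrained knockout muscle, which shares the vehicle samples, and for none of the 20 did trained and untrained knockout samples differ by the test. Of the 10 rises 7, and of the 10 falls 6, had a promoter in the RefSeq table, and none of these 13 held an E-box.

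Prss55 (ENSMUSG00000034623), a serine protease gene known from testis, was at 0.183 to 0.775 CPM in vehicle sedentary libraries and at 5.22, 9.71 and 8.58 CPM in trained knockout samples (log2 4.09, SE 0.284, edgeR adjusted p = 6.63e-07). Cdkn1a (p21, ENSMUSG00000023067), an inhibitor of the cell cycle that also rises in stressed muscle, was at 9.59, 9.98, 7.62, 7.63 and 10.2 CPM against 207, 89.4 and 86.8 CPM, 14.8-fold higher. It was the steepest rise of a gene with a mean above 100 CPM in either group, and sample 1+4 stood at more than 2 times the level of the other trained samples. Untrained knockout libraries held 106 to 157 CPM of it, between the trained samples. Mybph (ENSMUSG00000042451), a myosin binding protein of muscle, was at 42.7, 53.4, 68.5, 46.5 and 76.9 CPM against 462, 204 and 361 CPM (log2 2.64, edgeR adjusted p = 6.88e-06). Cilp, a cartilage matrix protein gene, had 585 CPM in sample 1+4 but 66.7 and 68.7 CPM in the other 2, against 22.0 to 45.8 CPM in vehicle sedentary libraries, so its mean log2 difference of 3.04 (edgeR adjusted p = 0.0036) rested on 1 sample and was 1.36 without it (edgeR adjusted p = 0.0315).

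Calcium handling genes of the sarcoplasmic reticulum were among the rises. Sarcolipin (Sln, ENSMUSG00000042045) and myoregulin (Mrln, ENSMUSG00000019933) are small membrane proteins that slow the calcium pump, as does phospholamban (Pln). Sln was at 2.40, 2.99, 2.71, 4.41 and 2.75 CPM in vehicle sedentary libraries and at 31.5, 11.5 and 11.8 CPM in trained knockout samples, 6.23-fold higher (edgeR adjusted p = 0.00161). Mrln was at 41.3, 40.3, 51.6, 54.3 and 36.5 CPM against 117, 254 and 208 CPM, 4.65-fold higher (edgeR adjusted p = 4.61e-06). The 2 regulators were unequal across the trained samples, Sln highest in sample 1+4 and Mrln lowest there. Pln was higher by 1.06 (edgeR adjusted p = 0.0232), but its sample 2 at 7.11 CPM lay among the vehicle libraries, and its call was lost without sample 1+4 (log2 0.66) or 3+5. Of 15 tested members of the calcium handling list 4 were higher and 1 lower, against 6.21% and 5.07% of all tested genes. The fourth rise was S100a1 (log2 0.65) and the fall was Cacna2d1 (log2 -0.52). Neither of these last calls held with the trend on transcript length removed (log2 0.24 and -0.39).

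Among the falls, Mylk4 (ENSMUSG00000044951), a myosin light chain kinase of striated muscle, was the most abundant, at 3853, 3159, 3065, 2865 and 3257 CPM in vehicle sedentary libraries and 240, 382 and 341 CPM in trained knockout samples. That is 9.45-fold lower (edgeR adjusted p = 7.45e-07). On column sums all 3 trained samples lay below the untrained knockout range of 399 to 721 CPM. The test between the knockout groups, on TMM scaling, missed the threshold (log2 -0.74, edgeR adjusted p = 0.07). TMM factors were 0.9168 for trained sample 2, the highest of the 3 here, and 0.9955 to 1.0635 for untrained knockout libraries, which narrows that gap. Slc2a3 (ENSMUSG00000003153), the glucose transporter GLUT3, was at 27.9, 19.2, 19.8, 18.2 and 19.6 CPM against 2.33, 2.90 and 1.197 CPM, 9.57-fold lower (edgeR adjusted p = 2.04e-06). Slc25a30, a mitochondrial carrier gene, was at 35.2 to 80.9 CPM against 6.96, 10.9 and 6.27 CPM (log2 -2.67, edgeR adjusted p = 1.19e-05). Dkk3, a secreted glycoprotein gene related to WNT antagonists, was at 17.6 to 32.7 CPM against 4.62, 3.13 and 5.08 CPM (log2 -2.44). Aebp1, a matrix-associated protein gene, was at 110 to 142 CPM against 26.4, 32.6 and 30.3 CPM (log2 -1.99, edgeR adjusted p = 6.63e-07). Lack of overlap between the groups was part of the rule that named these genes, so it is not a result here.

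**Figure D2:**
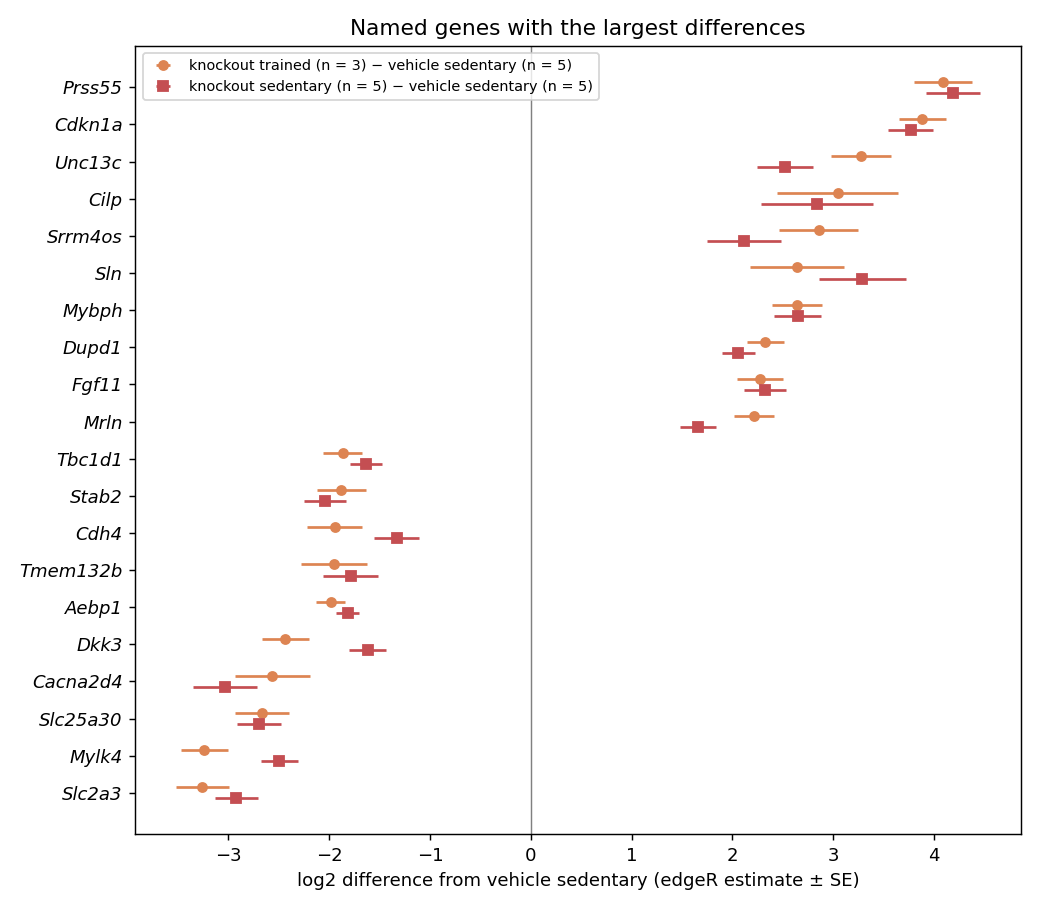
Log2 difference from vehicle sedentary samples with its standard error (edgeR) for the 20 named genes with the largest differences, in trained knockout samples (circles, n = 3) and in untrained knockout samples (squares, n = 5). Both symbols lie on the same side of 0 for every gene, from Prss55 at 4.09 to Slc2a3 at -3.26 after training.

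Nuclear genes of oxidative phosphorylation were higher in trained knockout muscle than in resting vehicle muscle, and they gave no call in untrained knockout muscle. Of 37 nuclear subunits of complex I, the NADH dehydrogenase that opens the respiratory chain, 34 were higher in trained knockout than in vehicle sedentary samples and none lower, with a median log2 difference of 0.69, and 22 did not overlap between the groups, where 5.36% of all genes lay higher without overlap. Of 42 subunits of complexes II to V, 36 were higher and none lower, with a median of 0.64, and 28 did not overlap. In untrained knockout against vehicle sedentary samples edgeR called 0 of the 37 and 0 of the 42, as did DESeq2 and limma-voom, with 1 member of each list at an unadjusted p under 0.05 and medians of 0.02 and 0.03. Between trained and untrained knockout samples 29 and 26 were higher, at medians of 0.63 and 0.62, but edgeR called no gene at all in that comparison without sample 2, without sample 3+5, with only the 2 groups compared or with all 4 groups and 18 samples (1674, 1601, 2208 and 1394 genes at an unadjusted p under 0.05). Against vehicle sedentary, 26 of the 37 and 29 of the 42 were higher without sample 2, 25 and 25 without sample 3+5, and 18 and 23 with all 4 groups and 18 samples.

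Cox5b (ENSMUSG00000061518), a subunit of cytochrome c oxidase, was at 166, 174, 159, 180 and 141 CPM in vehicle sedentary libraries and at 254, 357 and 336 CPM in trained knockout samples, 2.06-fold higher (log2 1.05, SE 0.124, edgeR adjusted p = 6.22e-05). Untrained knockout libraries lay at 182 to 222 CPM, and trained knockout samples were above all of them (log2 0.86, edgeR adjusted p = 0.00958). Ndufb7 (ENSMUSG00000033938), an accessory subunit of complex I, was at 94.2, 99.8, 104, 107 and 100 CPM against 141, 185 and 184 CPM, 1.80-fold higher (edgeR adjusted p = 0.000154). Ndufa1 (ENSMUSG00000016427), another accessory subunit, was at 42.1, 48.9, 48.9, 51.8 and 39.4 CPM against 64.1, 91.8 and 92.7 CPM, 1.92-fold higher (edgeR adjusted p = 0.00023), a call lost with each sample's trend on transcript length removed (log2 0.38, edgeR adjusted p = 0.0706). In each of these genes sample 1+4 was the lowest of the 3 trained samples and still above every vehicle sedentary library.

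Not all subunits followed. The 3 of complex I that did not pass were Ndufs1 (log2 0.08), Ndufv1 (log2 0.23) and Ndufc2 (log2 0.34), of which Ndufs1 and Ndufv1 belong to the catalytic core. Ndufs1 (ENSMUSG00000025968) was at 275 to 341 CPM in vehicle sedentary libraries and at 371, 268 and 301 CPM in trained knockout samples. Atp5b (ENSMUSG00000025393), the catalytic beta subunit of ATP synthase, was at 1807 to 2173 CPM against 2488, 2077 and 2333 CPM (log2 0.32, edgeR adjusted p = 0.0909). The other members of complexes II to V that did not pass were Sdha, Uqcrc2, Cox6a1, Atp5a1 and Atp5g2, with log2 differences of 0.10, 0.31, 0.24, 0.33 and 0.01. These names, and those of Cacna2d1, Ndufv1 and Ndufc2, were picked after their values had been seen, because few members were left. Citrate synthase (Cs), a common index of mitochondrial content, was at 618 to 766 CPM against 762, 564 and 662 CPM (log2 0.03, edgeR adjusted p = 0.915).

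The 13 genes encoded by mitochondrial DNA gave 0 calls in edgeR and in limma-voom and 2 in DESeq2, with 4 at an unadjusted p under 0.05 and a median log2 difference of 0.25. All 13 had log2 differences above 0, as did 7301 of the 14359 tested genes, and 3 of the 13 did in untrained knockout muscle. Their median length was 0.78 kb, and the part of length in this was not tested. For mt-Co1, the first subunit of cytochrome c oxidase, the levels were 45900, 47270, 50350, 47240 and 52490 CPM in vehicle sedentary libraries and 48440, 49650 and 47650 CPM in trained knockout samples, which lay among them. Of 14 citric acid cycle genes 1 was higher (Sucla2, log2 0.52), where 6.21% of all tested genes were called higher. Of 26 genes of fatty acid uptake and oxidation 3 were higher. They were Acadm, the medium-chain acyl-CoA dehydrogenase, at 290 to 330 CPM against 426, 409 and 432 CPM (log2 0.57, edgeR adjusted p = 0.00183), Eci1 (log2 0.48) and Etfa (log2 0.42). The call of Eci1 was lost without sample 2 (log2 0.43) or 3+5 (log2 0.42), and that of Etfa with the length trend removed (log2 0.28). Myoglobin (Mb, ENSMUSG00000018893), the oxygen store of oxidative fibres, was among the 5 most abundant called genes, at 3117, 3217, 2916, 3303 and 2588 CPM against 5332, 4261 and 4096 CPM. It was 1.60-fold higher than in vehicle sedentary (edgeR adjusted p = 0.00185), while untrained knockout muscle differed from vehicle by a log2 difference of 0.07 (adjusted p = 0.807). For Mb, unlike the subunits, sample 1+4 was the highest of the trained samples.

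**Figure D3:**
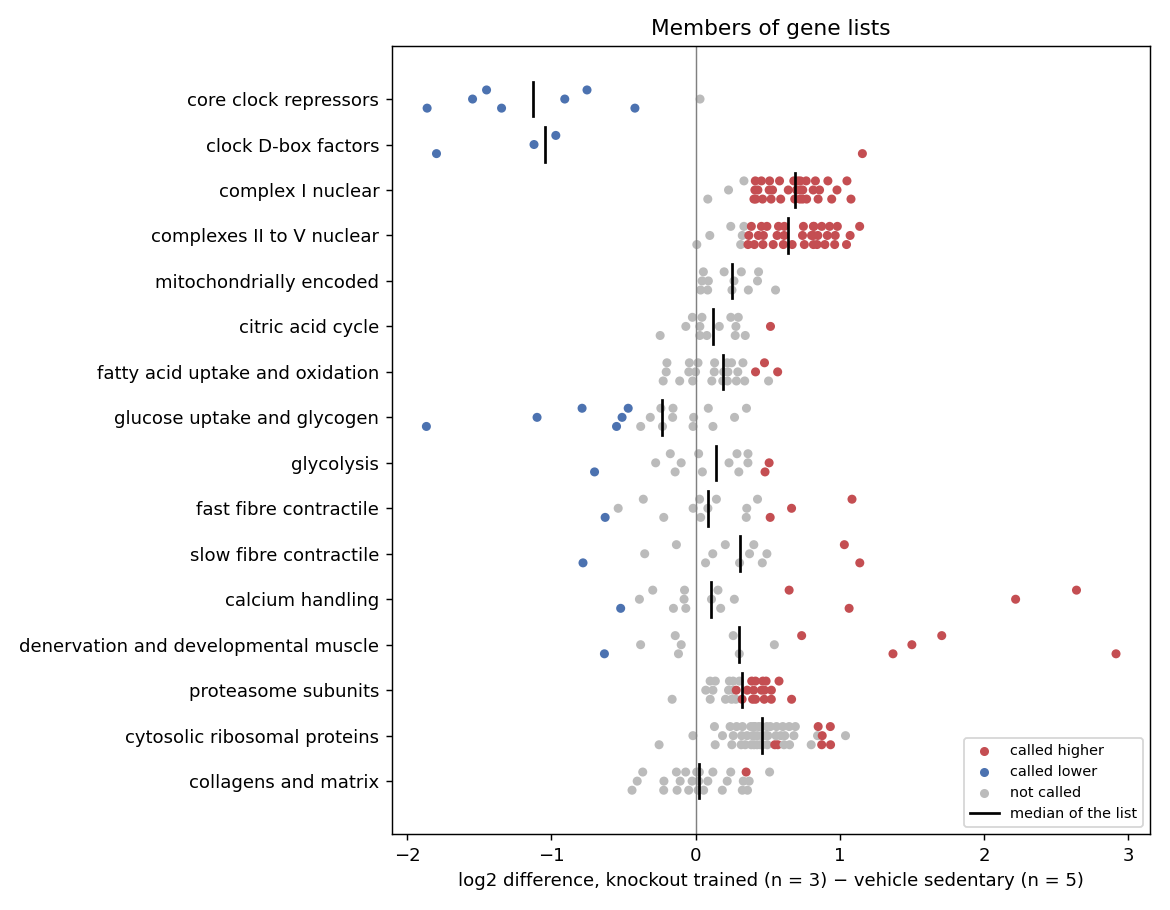
Log2 difference between trained knockout (n = 3) and vehicle sedentary (n = 5) samples for each tested member (point) of 16 gene lists, coloured by the edgeR call, with the median of the list (bar). Subunits of complex I and of complexes II to V lie to the right of 0, at medians of 0.69 and 0.64, and clock repressors to the left at -1.13.

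Transcript length moved with these results. Relative to the vehicle sedentary mean, the median of the 998 genes with under 1 kb of summed exon length was 0.61 in sample 2 and 0.43 in sample 3+5 on the log2 scale, and that of the 2370 genes of 8 kb and over was -0.23 and -0.18. In sample 1+4 these medians were 0.02 and 0.01, and in the untrained samples the short genes lay between -0.13 and 0.16. The respiratory subunits are short, with a median length of 1.57 kb for complex I and 1.79 kb for complexes II to V, against 4.17 kb over all genes. In sample 1+4, which had no trend with length, the median of complex I was 0.24 and that of complexes II to V was 0.25, against at most 0.09 in any vehicle sedentary library and at most 0.14 in any untrained knockout library. In samples 2 and 3+5 complex I stood at 0.93 and 0.82. With each sample's trend on length removed, 22 of the 37 and 27 of the 42 were still higher, at medians of 0.43 and 0.43. The part of length in the remainder was not tested.

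**Figure D4:**
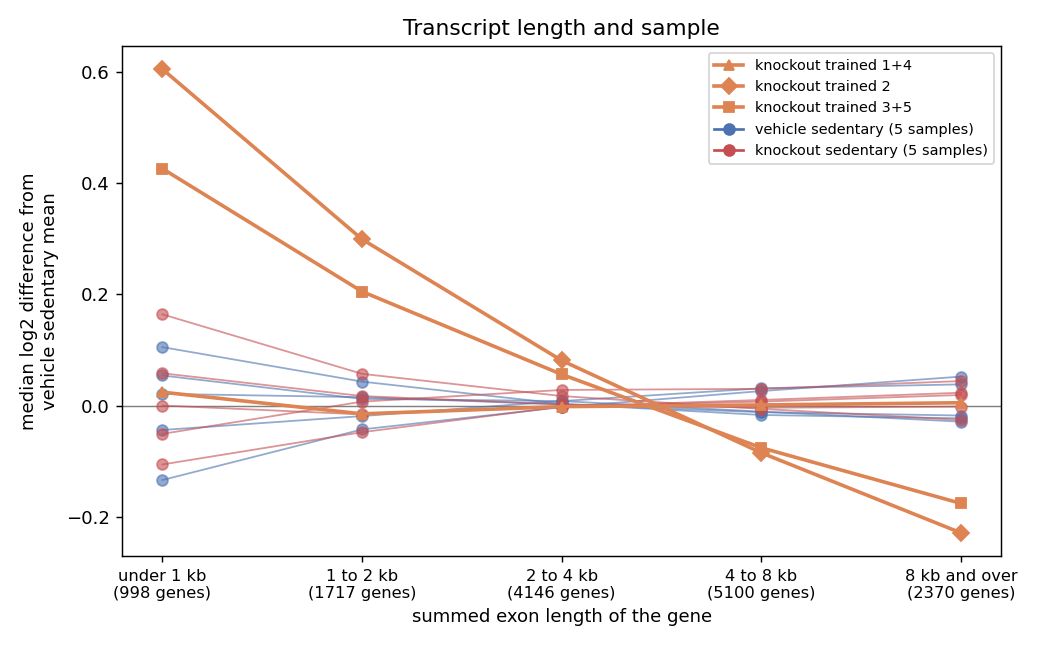
Median log2 difference from the vehicle sedentary mean (vertical axis) of genes in 5 classes of summed exon length (horizontal axis), 1 line per sample. Trained knockout samples 2 and 3+5 fall from 0.61 and 0.43 in the shortest class to -0.23 and -0.18 in the longest, and sample 1+4 lies between -0.015 and 0.024 in all 5 classes.

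Of 31 proteasome subunits 17 were higher than in vehicle sedentary samples, with a median log2 difference of 0.32 and a median length of 2.81 kb, and 8 of them with the length trend removed. Psma5, a subunit of the core particle, was at 24.4 to 33.3 CPM against 35.4, 49.5 and 43.9 CPM (log2 0.67, edgeR adjusted p = 0.0034). In untrained knockout muscle 4 proteasome genes were called higher and the median was 0.21. Of all tested genes, 6.21% were called higher after training and 5.36% lay higher without overlap. Of 53 cytosolic ribosomal protein genes, with a median length of 1.83 kb, 7 were higher at a median of 0.46, and 1 did not overlap. Sample 1+4 lay at -0.28 for this list, inside the vehicle sedentary range of -0.31 to 0.40, while sample 2 lay at 0.95. In vehicle trained libraries other than library 2, set against vehicle sedentary in a fit of 17 samples, edgeR called 0 of 14359 genes (1869 at an unadjusted p under 0.05), and the medians were 0.20 for complex I, 0.18 for complexes II to V and 0.51 for ribosomal proteins.

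**Figure D5:**
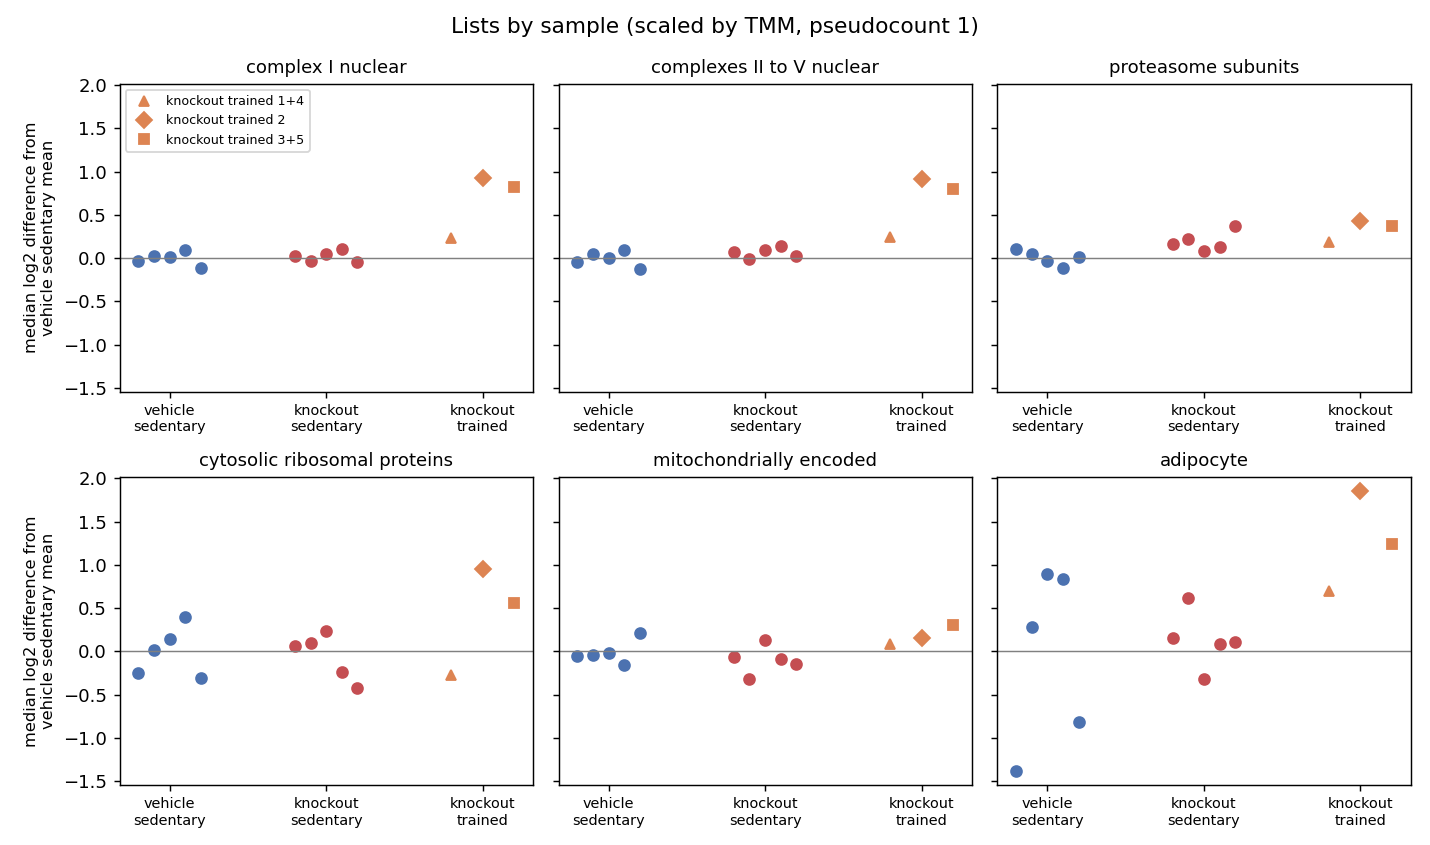
Median log2 difference from the vehicle sedentary mean (vertical axis, TMM scaling, pseudocount 1) of 6 gene lists in each sample, with a symbol for each of the 3 trained knockout samples. All 3 lie above the vehicle sedentary and untrained knockout samples for complex I and complexes II to V, while sample 1+4 lies among the untrained samples for ribosomal proteins.

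Part of the genes of glucose uptake and glycogen were below vehicle levels after training. Of 18 tested, 6 were lower, none higher and 12 did not pass, 4 of them with log2 differences above 0. The median log2 difference was -0.24, and 5 were lower in untrained knockout muscle. Of all tested genes, 5.07% were called lower after training and 4% in untrained knockout muscle. Tbc1d1 (ENSMUSG00000029174), a regulator of the traffic of glucose transporters to the membrane, was at 107, 92.5, 64.8, 84.2 and 71.0 CPM in vehicle sedentary libraries and at 27.4, 18.5 and 19.4 CPM in trained knockout samples, 3.64-fold lower (edgeR adjusted p = 1.5e-05). Hk2 (ENSMUSG00000000628), the hexokinase that traps glucose in muscle, was at 582, 525, 434, 412 and 505 CPM against 258, 186 and 210 CPM, 2.14-fold lower (edgeR adjusted p = 0.00016). Neither gene overlapped between the groups, and their log2 differences of -1.87 and -1.10 stood beside -1.64 and -1.002 without training. Ppp1r3a, the muscle glycogen-targeting subunit of protein phosphatase 1, was at 874 to 1139 CPM against 553, 531 and 541 CPM (log2 -0.79, edgeR adjusted p = 0.00025), and at 746 to 870 CPM in untrained knockout libraries (log2 -0.35). Without sample 2, or without sample 3+5, 3 of the 18 were lower, and with column sums 8 were. Over all 14359 genes the calls lower numbered 410, 361 and 1073 in these fits, against 728 in the main fit.

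Further along the same route, the glycolytic list was mixed, with 2 of 14 genes higher and 1 lower. Of all tested genes 6.21% were called higher and 5.07% lower. Pfkm (ENSMUSG00000033065), the muscle phosphofructokinase that sets the pace of glycolysis, was at 3439, 3126, 2672, 2461 and 2713 CPM in vehicle sedentary libraries and at 1888, 1410 and 1737 CPM in trained knockout samples, 1.62-fold lower (edgeR adjusted p = 0.00333). Pgam2, the muscle phosphoglycerate mutase, was higher, at 1200 to 1277 CPM against 1414, 1738 and 1833 CPM (log2 0.51, edgeR adjusted p = 0.00613), and so was Pgk1 (log2 0.48). Both rises were lost with the length trend removed (log2 0.16 and 0.38) and without sample 3+5. Pgam2 stood at 0.02 without training, whereas Pfkm stood at -0.75. The lactate transporters Slc16a1 (MCT1) and Slc16a3 (MCT4) were both lower. Slc16a1 (ENSMUSG00000032902) was at 76.0, 91.2, 68.2, 69.9 and 72.2 CPM against 36.2, 31.0 and 29.5 CPM, 2.21-fold lower (edgeR adjusted p = 7.67e-05), and the log2 difference of Slc16a3 was -0.47, a call lost with the length trend removed (log2 -0.42), without sample 2 or 3+5 (log2 -0.44 and -0.45) and without vehicle library 5.

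Of 16 tested regulators of endurance capacity, 1 was higher (Rxrg, log2 0.51) and 3 lower, against 6.21% and 5.07% of all tested genes. The median log2 difference of the list was -0.11. Ppargc1a (PGC-1 alpha, ENSMUSG00000029167), the coactivator of mitochondrial biogenesis, was at 78.0, 83.1, 65.9, 60.1 and 80.8 CPM in vehicle sedentary libraries and at 57.1, 38.8 and 51.0 CPM in trained knockout samples (log2 -0.51, edgeR adjusted p = 0.0257). All 3 trained values lay below all vehicle values, and the log2 difference was -0.55 without training. The call after training was lost without sample 2 (log2 -0.37) or 3+5 (log2 -0.57) and with the length trend removed (log2 -0.44). Nrip1 (RIP140, ENSMUSG00000048490), a corepressor of oxidative genes in muscle, was at 107, 113, 89.1, 77.1 and 106 CPM against 32.3, 30.9 and 28.5 CPM, 3.04-fold lower (edgeR adjusted p = 4.28e-06). The third fall was Pprc1 (log2 -0.55).

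Of 15 fast fibre genes 3 were higher and 1 lower (Mylk2, log2 -0.63), and of 13 slow fibre genes 2 were higher and 1 lower, where 11.3% of all tested genes were called. The call of Mylk2 was lost without sample 2 (log2 -0.51) or 3+5 (log2 -0.62). Mylpf (ENSMUSG00000030672), the fast regulatory light chain, was at 4256, 4222, 4586, 5339 and 3788 CPM in vehicle sedentary libraries and at 6223, 10530 and 9460 CPM in trained knockout samples, 2.12-fold higher (edgeR adjusted p = 0.000429), and it kept its call in all 27 alternative fits. The other rises were Pvalb, the calcium buffer parvalbumin (log2 0.67), and Tnnc2, fast troponin C (log2 0.52), both lost with the length trend removed (log2 0.35 and 0.14) and without sample 2 or 3+5. The myosin heavy chains did not pass: Myh4, that of type IIB fibres, was at 19850 to 27180 CPM against 20220, 14660 and 19640 CPM (log2 -0.36, edgeR adjusted p = 0.236), and Myh7, that of slow fibres, was at 236 to 433 CPM against 245, 254 and 250 CPM (adjusted p = 0.845).

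Among the slow fibre genes, Casq2 and Tnni1 were higher and Mybpc1 lower. Casq2 (ENSMUSG00000027861), the slow and cardiac calsequestrin, was at 33.2, 35.1, 33.1, 36.5 and 28.3 CPM against 79.0, 62.3 and 65.6 CPM, 2.20-fold higher (edgeR adjusted p = 8.03e-05), beside a log2 difference of 1.46 without training. Tnni1, slow troponin I, was at 21.02 to 40.2 CPM against 39.9, 59.1 and 59.5 CPM, which overlapped in sample 1+4 (log2 1.03, edgeR adjusted p = 0.0358), and its call was lost without sample 2 or 3+5. Mybpc1, slow myosin binding protein C, had a log2 difference of -0.78. Telethonin (Tcap, ENSMUSG00000007877), which caps titin at the Z-disc, was at 2219, 2486, 2271, 1957 and 2342 CPM against 604, 752 and 644 CPM, 3.18-fold lower (edgeR adjusted p = 5.57e-06). Untrained knockout libraries were at 537 to 785 CPM for Tcap, a range that held the 3 trained values.

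Genes that rise in denervated or developing muscle were higher in part. Of 13 tested, 5 were higher, as they were in untrained knockout muscle, and Musk, the agrin receptor kinase, was lower (log2 -0.63, named after its value was seen). Of all tested genes, 6.21% were called higher and 5.07% lower after training, and 3.06% were called higher in untrained knockout muscle. Chrna1 (ENSMUSG00000027107), the acetylcholine receptor alpha subunit, was at 16.9, 15.9, 12.2, 11.9 and 14.5 CPM in vehicle sedentary libraries and at 34.7, 41.4 and 37.5 CPM in trained knockout samples, 2.83-fold higher (edgeR adjusted p = 3.52e-05). Actc1 (ENSMUSG00000068614), the cardiac actin of developing muscle, was at 35.0, 49.3, 55.2, 47.8 and 60.5 CPM against 124, 156 and 174 CPM, 3.26-fold higher (edgeR adjusted p = 2.11e-05). Both were alike across the trained samples, whereas Chrnb1, the beta subunit, was at 127 CPM in sample 1+4 and at 42.4 and 55.7 CPM in the others, against 24.6 to 35.8 CPM (log2 1.37, edgeR adjusted p = 0.00247, and 0.86 without sample 1+4). Chrne, the subunit of the adult receptor, was at 23.0 CPM in sample 1+4, above the vehicle range of 9.60 to 15 CPM. In the other trained samples Chrne was at 11.5 and 11.5 CPM, inside that range, and it did not pass (edgeR adjusted p = 0.389). Of the 5 rises, Chrna1, Actc1, Chrnb1 and Krt18 were called in all 27 alternative fits and Gadd45a in 26, its call being lost in the fit of all 4 groups with 18 samples.

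Of 16 wasting genes 1 was higher and 3 lower, and of 12 growth genes 1 was lower, against 11.3% of all tested genes called in either direction. Mstn (myostatin, ENSMUSG00000026100), a secreted brake on muscle growth, was at 215, 149, 177, 162 and 153 CPM in vehicle sedentary libraries and at 96.9, 92.4 and 80.2 CPM in trained knockout samples, 1.80-fold lower (edgeR adjusted p = 0.000829). Its untrained knockout libraries lay between, at 117 to 153 CPM (log2 -0.43). Acvr1b (ENSMUSG00000000532), a receptor of the same signalling family, was at 119, 103, 99.2, 101 and 95.4 CPM against 54.4, 39.1 and 39.7 CPM, 2.21-fold lower (edgeR adjusted p = 5.71e-06), and it was the called gene of the growth list. On the wasting list, Foxo1 (log2 -0.39) and Foxo3 (log2 -0.42) were lower with Mstn, and Map1lc3b was higher (log2 0.33). The calls of both Foxo genes were lost with the length trend removed (log2 -0.27 and -0.32), and that of Map1lc3b without sample 2 (log2 0.28) or 3+5 (log2 0.27). The ubiquitin ligase gene Fbxo32 did not pass (log2 -0.18, adjusted p = 0.543).

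In lipid and amino acid handling, Gpt, an alanine aminotransferase gene, was at 20.03 to 22.2 CPM in vehicle sedentary libraries and at 55.0, 36.1 and 44.0 CPM in trained knockout samples (log2 1.19, SE 0.110, edgeR adjusted p = 5.97e-06). Glul, glutamine synthetase, was lower at 365 to 574 CPM against 247, 297 and 222 CPM (log2 -0.81), a call lost without sample 3+5. Of 17 genes of triglyceride storage and breakdown, 4 were higher and 3 lower, against 6.21% and 5.07% of all tested genes. Plin5, the droplet protein that ties lipid stores to mitochondria, was at 14.7 to 21.1 CPM against 33.1, 27.1 and 36.2 CPM (log2 0.97, edgeR adjusted p = 0.0027). Dgat2 (ENSMUSG00000030747), which makes triglyceride, was at 60.1, 95.9, 62.8, 63.8 and 56.9 CPM against 25.1, 41.3 and 26.2 CPM, 2.07-fold lower (edgeR adjusted p = 0.00257). Dgat2 was nearer to vehicle after training than without (log2 -1.05 against -1.79), but the difference between the knockout groups missed the threshold (log2 0.74, edgeR adjusted p = 0.0596). Of 27 collagen and matrix genes 1 was called, against 11.3% of all tested genes. It was Col4a2, at a log2 difference of 0.35 (edgeR adjusted p = 0.0446), called in 16 of 27 alternative fits and lost with column sums, limma-voom and without sample 3+5 (log2 0.25).

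The genes with the smallest p between trained and untrained knockout muscle are given next. Their calls in that comparison, those of Fgd4, Ptpn4 and Map1lc3a included, were all lost without sample 2, without sample 3+5 and with only the knockout groups fitted, where edgeR called 0 genes. Fgd4 (ENSMUSG00000022788), an exchange factor for CDC42, was at 37.98, 35.6, 39.0, 33.3 and 37.1 CPM in vehicle sedentary libraries, at 50.2 to 62.4 CPM in untrained knockout libraries and at 33.6, 31.5 and 33.1 CPM in trained knockout samples. After training its log2 difference from vehicle was -0.08 (edgeR adjusted p = 0.668), and the sign turned in 1 of 27 alternative fits. The difference between the knockout groups was -0.62 (SE 0.0943, edgeR adjusted p = 0.00958). Ptpn4 (ENSMUSG00000026384), a tyrosine phosphatase gene, was at 48.1 to 61.8 CPM in vehicle, 102 to 121 CPM in untrained and 81.2, 65.1 and 69.3 CPM in trained knockout samples, so it lay between the 2 and was still higher than vehicle (log2 0.53, edgeR adjusted p = 0.000761).

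Map1lc3a (ENSMUSG00000027602), an autophagy gene, was at 105 to 130 CPM in vehicle sedentary, 81.3 to 104 CPM in untrained knockout and 121, 154 and 134 CPM in trained knockout samples. Its log2 difference from vehicle was -0.42 without training and 0.30 after it (edgeR adjusted p = 0.00631 and 0.0689), and the knockout groups differed by 0.72 (adjusted p = 0.00958). Vegfb (ENSMUSG00000024962), a growth factor of the VEGF family, was at 58.4, 63.3, 63.5, 61.7 and 60.2 CPM in vehicle and at 75.8, 77.0 and 77.0 CPM in trained knockout samples (log2 0.41, edgeR adjusted p = 0.00358), a call lost with the length trend removed. Ube2m, an enzyme of neddylation, was higher than in either untrained group (log2 0.46 from vehicle and 0.54 from untrained knockout). Tasor2, Zfp638 and Pigw were lower than in both (log2 -0.58, -0.43 and -0.46 from vehicle), and the exons of Tasor2 and Pigw overlap another gene.

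Markers of other cell types varied among the trained samples, and the median of the adipocyte list was above the vehicle sedentary mean in all 3. The summed level of 5 blood genes was 370 to 864 CPM in vehicle sedentary libraries and 429, 781 and 2892 CPM from the lowest to the highest trained knockout sample, with Hbb-bs, a haemoglobin gene, at 246, 2125 and 454 CPM. The summed level of 8 macrophage genes was 58.0 to 239 CPM against 58.8 to 345 CPM, and that of 7 adipocyte genes 349 to 486 CPM against 392 to 572 CPM. The median of the adipocyte list relative to the vehicle sedentary mean was 0.695 in sample 1+4, 1.855 in sample 2 and 1.24 in sample 3+5 on the log2 scale, against -1.379 to 0.90 in vehicle sedentary libraries and at most 0.62 in untrained knockout libraries. From the fit, the median log2 difference of the 7 genes was 1.09 after training and -0.17 without, with Adipoq, Plin1, Cidec, Cfd and Retn between 1.03 and 1.51 and Lep and Plin4 at -0.04 and -0.34. None of these 20 genes was called by edgeR, DESeq2 or limma-voom, with 4 blood, 6 adipocyte and 0 macrophage genes at an unadjusted p under 0.05. Their defining markers were not at 0. Of 8 fibroblast and tendon genes, Tnmd, Fmod and Thbs4 were higher (log2 1.64, 1.25 and 0.90), Fmod with no call without sample 2 (log2 1.04) or 3+5 (log2 1.18), though the summed level of that list, 1688 to 3175 CPM, lay inside the vehicle range of 1653 to 3600 CPM. S100a9, the neutrophil gene tested, was higher (log2 2.03, edgeR adjusted p = 0.0448) with 2.90 CPM in sample 2 and 0.275 CPM in sample 1+4 (log2 0.87 and no call without sample 2, and no call without sample 3+5), as was Sdc4 of the satellite cell list (log2 0.62). The 6 Schwann cell and 7 endothelial genes gave no call (0 at an unadjusted p under 0.05). In sample 1+4 the blood, macrophage, Schwann cell, endothelial and adipocyte lists stood at medians of -0.27, -0.88, -0.33, 0.46 and 0.695, beside 0.24 for complex I. In sample 2, where complex I stood at 0.93, they stood at 1.82, 1.35, -0.54, -0.095 and 1.855. The part of these cells in the other results was not tested.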

How the data were processed

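RNA from hindlimb muscle was extracted with Trizol and a Qiagen RNeasy kit and made into libraries with an Illumina kit, per the labels' protocols. The submitters' processing notes name Partek, STAR 2.7.8a and DESeq2 and the builds mm10 and GRCm39, with no role or order. The counting program, annotation and strandedness are not given in the sources used here. The authors deposited estimated counts per gene (expected counts, 72.0% of them whole numbers) for 21844 genes in 20 libraries. Because the build is not settled, no coordinates of counted genes are given. GENCODE M21 served only for summed exon length and overlaps (70 genes of the table were missing from it), and promoter windows come from RefSeq GRCm38.p6.

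Estimated counts were rounded to whole numbers, and knockout trained libraries 1 and 4, and 3 and 5, were summed. A gene was tested if 5 or more of the 20 libraries reached 1 CPM, which left 14359 genes. EdgeR 4.0.16 under R 4.3.3 was run in its quasi-likelihood form with TMM scaling on 13 samples of 3 groups, two-sided, with Benjamini-Hochberg adjustment over all tested genes in each comparison and a threshold of 0.05. Vehicle trained libraries were left out of the fit, because library 2 of that group stood far from all others. Levels are CPM of the column sum, and log2 differences and folds come from the fit. On simulated counts for trained knockout against vehicle sedentary the test recovered 134 of 200 changed genes among 14359, with 10 calls among unchanged genes. The simulated counts gave each gene the same spread in all samples and held no trend with length. They therefore cannot show how the test behaves with trained samples as unlike as these.

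The comparison, the gene lists and the marker lists were chosen with earlier results of these data known, so they support nothing by their choice. Named genes were all clock genes (1 is not reported here), the 10 largest called rises and falls without overlap and with a mean CPM of at least 5, up to 5 called members per list with the smallest adjusted p and up to 2 abundant members that did not pass, the 5 most abundant called genes, the 5 rises and 5 falls with the smallest p between the knockout groups, and all cell markers. Where 5 or fewer members of a list were called in 1 direction, further names were added after their values had been seen. Alternatives were DESeq2 size factors, column sums, no filter, filterByExpr, DESeq2 1.42.0, limma-voom (limma 3.58.1), robust dispersion, other sets of groups, libraries taken as separate or as 1 of each pair, a replicate block, each sample left out, and, added after seeing the data, an offset for transcript length. Counting error falls with depth, so levels under 1 CPM rest on few reads.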

Additional observations from a re-analysis of the deposited data

Results flagged for a closer look

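In each group of 5 libraries of the comparison, 55 summed list levels and clock gene levels were examined for a library far from the other 4, and 2 stood apart, against 2.75 that chance gives at about 1 in 20 groups. The summed level of the myogenic regulators was 1774 CPM in vehicle sedentary library 1. The summed level of the neutrophil list, of which S100a9 was the tested member, was 0.489 CPM in vehicle sedentary library 5. Trained knockout samples, being 3, were not examined in this way.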

How the results depend on the processing

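The count of 1620 genes for trained knockout against vehicle sedentary stayed within 1.5 times its value under 13 of 14 settings other than leaving out a sample, from 1134 with only the groups compared to 2117 with all libraries taken as separate; it was 425 with all 4 groups and 18 samples, all 425 among the 1620. Leaving out 1 sample gave 784 to 2957, with the extremes set by the trained samples (784 without 3+5, 945 without 2, 2957 without 1+4). For untrained knockout against vehicle sedentary, 1013 genes became 334 with 18 samples, and leaving out 1 sample kept the count within 1.5 times.

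The 291 genes between the knockout groups were the least stable. They became 458 with column sums, 839 with DESeq2, 576 with separate libraries, 121 with all groups but without vehicle trained library 2, and 49 with the length trend removed. EdgeR called 0 with only the groups compared (2208 at an unadjusted p under 0.05) and 0 with 18 samples (1394). Leaving out 1 sample gave 0 to 2056, with 0 without trained sample 2 (1674 at an unadjusted p under 0.05) or 3+5 (1601) and 2056 without 1+4.

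The Arntl difference of log2(CPM + 1) lay between 0.275 (without trained sample 1+4) and 0.731 when 1 sample was left out, with exact permutation p of 0.0571 or 0.0952, in designs that cannot reach 0.05. Correlations of same-numbered libraries' deviations from their group means ran from -0.324 to 0.347. Differently numbered libraries were not examined beside them, so these values cannot show whether replicate numbers pair the samples. With a replicate block on separate libraries the counts were 2103, 1053 and 487, against 2117, 1026 and 576 without it. Of 229 named genes, no call turned direction. The calls lost numbered 71 with 18 samples, 40 without trained sample 3+5, 30 without sample 2, 26 with the length trend removed and 12 with column sums, and at most 16 under any other setting. Depth limits what was detectable for genes near 1 CPM.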

Other observations

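Outside the lists described above, Dupd1, a muscle phosphatase gene, was at 27.9 to 42.5 CPM in vehicle sedentary libraries and at 220, 151 and 138 CPM in trained knockout samples, and Fgf11, of the intracellular FGF family, was at 1.73 to 2.74 CPM against 15.2, 6.80 and 7.18 CPM. Both were called (edgeR adjusted p = 1.64e-06 and 1.19e-05), and their log2 differences of 2.33 and 2.27 stood beside 2.06 and 2.32 in untrained knockout muscle. Stab2, a scavenger receptor gene, was lower at 15.2 to 26.4 CPM against 7.55, 3.75 and 5.08 CPM (log2 -1.88, edgeR adjusted p = 0.000134), and Cdh4, a cadherin gene, was at 15.98 to 27.8 CPM against 4.58, 5.73 and 5.03 CPM (log2 -1.95, edgeR adjusted p = 0.000259). Gadd45a, a stress and atrophy gene, was higher at 38.9 to 48.4 CPM against 23.7 to 30.7 CPM (log2 0.73), and Myod1, the myogenic factor, at 62.2 to 78.1 CPM against 43.2 to 63.4 CPM (log2 0.62, edgeR adjusted p = 0.0336). For Myod1 the groups overlapped in 1 vehicle library. It was called in 19 of 27 alternative fits, and not with column sums, with the length trend removed or without sample 3+5. Lpl, lipoprotein lipase, was not called after training (log2 -0.32, edgeR adjusted p = 0.16). On column sums its 3 trained samples, at 633, 716 and 675 CPM, lay below all vehicle sedentary libraries, at 798 to 1007 CPM. The same held for 10.8% of all tested genes.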
